A study of Homo sapiens with 9 samples.

Results

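The enzymes that turn lanosterol into cholesterol were followed through 8 of their genes, CYP51A1, TM7SF2, MSMO1, NSDHL, HSD17B7, EBP, SC5D and DHCR7. These genes were taken by symbol from the 16199 genes listed in the deposited files. The set was chosen with earlier results of these data known, so its counts are descriptions. HaCaT cells, an immortalized line of human keratinocytes (the cells that build the epidermis), were kept in serum-free medium after they had reached confluence. They were left untreated, or received epidermal growth factor (EGF, 10 nM) or bleogen pB1 (1 µM) for 24 h, with 3 libraries of polyadenylated RNA in each of the 3 groups. Bleogen pB1 is a cystine-rich peptide of the cactus Pereskia bleo that acts on the EGF receptor, and its dose differed from that of EGF, so the direct comparison of both treatments is one of these doses. All groups were the same unedited cell line, and the labels did not say whether the libraries of a group came from separate cultures, so the p-values measure only the spread between these libraries. All 8 genes were listed in every library and passed the filter on low counts that left 12394 genes to test. Libraries held 20288417 to 21320994 expected counts (estimates that divide reads between the transcripts they fit). The 9 keratinocyte and epithelial markers examined were KRT5, KRT14, TP63, SFN, DSG3, CDH1, EPCAM, KRT8 and KRT18. Each had at least 1 FPKM (fragments relative to the length of the gene and the size of the library) in 1 or more libraries of every group. None of the 17 markers of fibroblasts, melanocytes, endothelial and immune cells reached 1 FPKM in any library. In bulk RNA, fewer cells that express a gene and less of its RNA per cell cannot be told apart.

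Lanosterol is the first sterol of the pathway, and the enzymes after it strip methyl groups from its ring system and rearrange the double bonds until cholesterol is reached. CYP51A1, a cytochrome, starts by removing a methyl group, and TM7SF2 reduces the double bond that this leaves. MSMO1, NSDHL and HSD17B7 act in turn on the remaining pair of methyl groups, EBP shifts a double bond within the ring, SC5D adds one, and DHCR7 reduces 7-dehydrocholesterol to cholesterol. In the epidermis cholesterol is one of the lipids of the permeability barrier, and 7-dehydrocholesterol is also the precursor of vitamin D. Genes of the whole pathway are known targets of SREBP transcription factors, which cells activate when membrane sterol is low.

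In GENCODE 44 on GRCh38, CYP51A1 (NCBI gene 1595) lies on chromosome 7 from 92084987 to 92134803, and TM7SF2 (7108) on chromosome 11 from 65111845 to 65116384. MSMO1 (6307) lies on chromosome 4 from 165327667 to 165343164, and NSDHL (50814) on chromosome X from 152830967 to 152869729. HSD17B7 (51478) lies on chromosome 1 from 162790702 to 162812823, and EBP (10682) on chromosome X from 48521799 to 48528716. SC5D (6309) and DHCR7 (1717) lie on chromosome 11, from 121292681 to 121313410 and from 71428193 to 71452868. The counts of CYP51A1 and HSD17B7 are uncertain because the annotation holds 3 processed pseudogenes of the former and 2 pseudogenes of the latter, none of which the files list. CYP51A1 also shares 108 exon bases with AKAP9 and 138 with CYP51A1-AS1, both on the opposite strand, and TM7SF2 shares 18 with VPS51. On the same strand, 2 further gene models share 68.2% and 67.8% of the exon bases of CYP51A1, and 1 shares 36.4% of those of EBP. Neither these models nor CYP51A1-AS1 were listed.

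The promoters of the 8 genes were read from RefSeq (GRCh38.p14), which gave a window of 300 bases for each, 250 before and 50 after the gene's start. RefSeq and GENCODE starts can differ. For DHCR7 and CYP51A1, both on the minus strand, the last 150 bases before the RefSeq start lie inside the GENCODE spans above. These are chr11:71448394-71448543 and chr7:92134478-92134627. CCAAT, the box bound by NF-Y, a factor known to act beside SREBP, was searched on both strands and was found in 7 of the 8 windows, all but that of CYP51A1. It was present in 36.9% of the 10169 promoters of tested genes and in 35.7% of all 27305. Sequence upstream of 4 of the genes is shown on the strand of the gene, with CCAAT or its reverse complement in capitals. MSMO1 is shown because it fell the most under bleogen pB1, TM7SF2 and HSD17B7 because they fell and rose the most under EGF, and EBP because it had the highest level per length. The stretches are chr4:165327519-165327668, chr11:65111722-65111871, chr1:162790552-162790701 and chrX:48521658-48521807, all on the plus strand, and each is the last 150 bases before the RefSeq gene start.
MSMO1: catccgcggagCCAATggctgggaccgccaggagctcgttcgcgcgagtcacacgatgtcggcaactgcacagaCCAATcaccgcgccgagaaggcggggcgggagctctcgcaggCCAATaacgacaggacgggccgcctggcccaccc
TM7SF2: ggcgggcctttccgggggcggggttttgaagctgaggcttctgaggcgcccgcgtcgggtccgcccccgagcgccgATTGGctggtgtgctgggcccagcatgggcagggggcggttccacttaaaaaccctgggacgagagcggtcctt
HSD17B7: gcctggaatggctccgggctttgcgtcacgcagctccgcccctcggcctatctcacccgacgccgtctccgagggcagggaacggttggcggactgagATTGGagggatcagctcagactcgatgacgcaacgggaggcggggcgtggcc
EBP: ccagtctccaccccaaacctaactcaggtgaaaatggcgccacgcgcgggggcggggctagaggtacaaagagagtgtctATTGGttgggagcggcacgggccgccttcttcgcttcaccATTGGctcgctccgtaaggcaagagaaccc

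The windows differed in how often they held the box. The MSMO1 window held 4 copies of CCAAT, the EBP window 3, and those of HSD17B7 and DHCR7 2 each, whereas TM7SF2 and SC5D had 1. NSDHL had 5, of which 2 overlap on opposite strands. GGGCGG, the box of Sp1, was in 7 of the 8 windows (all but NSDHL) and in 70.0% of the promoters of tested genes, and CACGTG, an E-box that reads the same on both strands, was in that of SC5D alone, against 10.0%. TCACNCCAC, a sterol regulatory element, was in none of the 8 windows and in 1.08% of the promoters of tested genes. A missing match says only that these letters are not in this window.

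The 8 genes were expressed at levels that spanned more than an order of magnitude per length, and the steps with the most RNA did not follow the order of the pathway. In untreated cells EBP, the isomerase, was highest at 262.6 ± 18.8 FPKM (SD, n = 3), and DHCR7, the last enzyme, followed at 181.1 ± 2.09. MSMO1 and CYP51A1 stood next at 92.2 ± 1.54 and 78.9 ± 4.10 FPKM. NSDHL was at 50.2 ± 0.849 FPKM, and the lowest levels were those of HSD17B7 (27.2 ± 0.237), SC5D (22.1 ± 0.577) and TM7SF2 (18.6 ± 0.324). No neighbours in this order overlapped among the untreated libraries. The order was the same in 8 of the 9 libraries, and in replicate 1 of bleogen pB1 CYP51A1 stood above MSMO1, the only neighbours whose ranges overlapped in any group. The ratio of EBP to TM7SF2 was 14.1 ± 1.14 in untreated cells and 15.4 ± 3.12 with bleogen pB1, and 33.2 ± 1.06 with EGF (SD, n = 3 each). Expected counts give another order because the genes differ in length, SC5D being the longest with 6948 bases and EBP the shortest with 1191. Together the 8 genes took 0.150% of all expected counts in untreated cells, 0.144 to 0.164% with EGF and 0.105 to 0.115% with bleogen pB1.

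**Figure D1:**
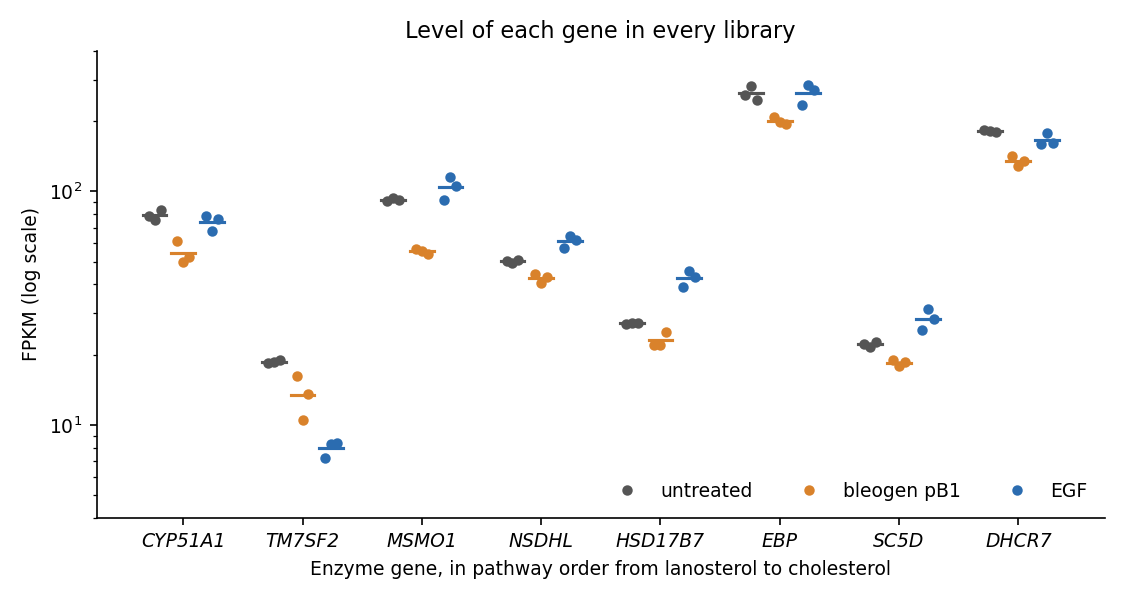
FPKM on a log axis of the 8 enzyme genes in pathway order, with 1 point for each of the 3 libraries of a group and a line at the group mean (grey untreated, orange bleogen pB1, blue EGF). The bleogen pB1 points lie below the untreated points for every gene, while the EGF points lie above them for MSMO1 (replicate 1 lies within the untreated range in FPKM), NSDHL, HSD17B7 and SC5D and far below them for TM7SF2. The EGF points of DHCR7 also lie below the untreated points in FPKM, the closest at 178.06 against 178.88.

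The genes of this stage were lower with bleogen pB1. Relative to untreated cells, 7 of the 8 fell (adjusted p of at most 0.05 in edgeR's quasi-likelihood test, Benjamini-Hochberg over all genes) and none rose, where 2.55% of all tested genes fell, 1.56% rose and 4.11% passed in either direction. MSMO1, the methyl oxidase, changed the most and fell by 40.9%. CYP51A1 fell by 31.6%, DHCR7 fell by 26.6% and EBP fell by 25.3%. The remaining gene, HSD17B7, had a change of −16.5% and did not pass. With a log2 fold change of at least 0.5 in size required as well, CYP51A1 and MSMO1 were called, against 1.48% of all tested genes (1.26% lower, 0.218% higher). The median log2 fold change (log2FC) of the 8 genes was −0.43, against −0.001 over all tested genes. For each of the 8 every bleogen pB1-treated library lay below every untreated one, as did 14.7% of all tested genes, with 14.4% lying above and 29.1% in either direction. The two-sided exact permutation test gave p = 0.1 for each, the smallest that 3 libraries against 3 allow.

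At the first step, CYP51A1 had 78.3, 75.1 and 83.2 FPKM in the untreated and 61.2, 50.01 and 52.6 in the bleogen pB1-treated libraries. The change was −0.55 on the log2 scale (edgeR adjusted p = 0.0026, SE 0.083), and replicate 1 of bleogen pB1 lay closest to the untreated range. TM7SF2, the next reductase, had 18.3, 18.6 and 19.0 FPKM against 16.1, 10.4 and 13.6, so that its treated libraries differed among themselves far more than the untreated ones. Its change of −0.50 (edgeR adjusted p = 0.0499, 95% interval −0.81 to −0.18, SE 0.129) stood at the edge of the threshold, and without replicate 2 of bleogen pB1 it was −0.35 (edgeR adjusted p = 0.15). When each of the 6 libraries compared was dropped in turn, TM7SF2 passed in 1 fit, that without replicate 1 of bleogen pB1 (−0.66, edgeR adjusted p = 0.0054).

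The 3 genes that act on the remaining methyl pair differed in the size of their estimates. MSMO1 had 91.1, 94.0 and 91.6 FPKM in untreated and 56.7, 55.8 and 53.9 in treated cells, a change of −0.76 (edgeR adjusted p = 0.0002, 95% interval −0.94 to −0.58, SE 0.073). The libraries of each group stood within a few FPKM of each other, and the gap between the groups was far wider. NSDHL, the dehydrogenase that follows, had 50.5, 49.2 and 50.9 FPKM against 44.1, 40.5 and 42.8 (−0.27, edgeR adjusted p = 0.033, SE 0.062). HSD17B7, a reductase also known to form estradiol from estrone, had 26.9, 27.4 and 27.3 FPKM against 21.9, 22.1 and 25.0. Its groups did not overlap, and its change was −0.26 (edgeR adjusted p = 0.078, 95% interval −0.45 to −0.07, SE 0.078).

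Of the last 3 steps, EBP had 259.0, 283.0 and 245.9 FPKM in untreated and 207.6, 197.2 and 195.1 in treated cells, a change of −0.42 (edgeR adjusted p = 0.011, SE 0.079). SC5D, the desaturase, had 22.3, 21.5 and 22.6 FPKM against 19.0, 17.8 and 18.7, a smaller change of −0.28 (edgeR adjusted p = 0.047, SE 0.070). DHCR7 had 183.1, 181.3 and 178.9 FPKM against 141.5, 128.5 and 134.2, a change of −0.45 (edgeR adjusted p = 0.0014, SE 0.061). For all 3 the lowest untreated library stood above the highest treated one.

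Replicate 1 of bleogen pB1 held the highest level of its group for 7 of the 8 genes, all but HSD17B7. Without it the count that fell stayed at 7 and 3 genes passed the fold limit too. The count was lower without any other library: it was 3 without replicate 1 or 2 of the untreated cells, 4 without replicate 3, and 4 and 3 without replicates 2 and 3 of bleogen pB1. The number past both thresholds was 1 without replicate 2 of bleogen pB1. Each of these fits also has 1 residual degree of freedom fewer. Over the 6 fits that each left out 1 library, the log2 estimates ran from −0.47 to −0.36 for EBP and from −0.30 to −0.24 for NSDHL. They ran from −0.30 to −0.25 for SC5D and from −0.66 to −0.35 for TM7SF2. CYP51A1, MSMO1 and DHCR7 fell in all 17 alternative fits, EBP in 13, NSDHL in 11, SC5D in 7, TM7SF2 in 5 and HSD17B7 in 2, and all 8 were below 0 in each of the 17.

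**Figure D2:**
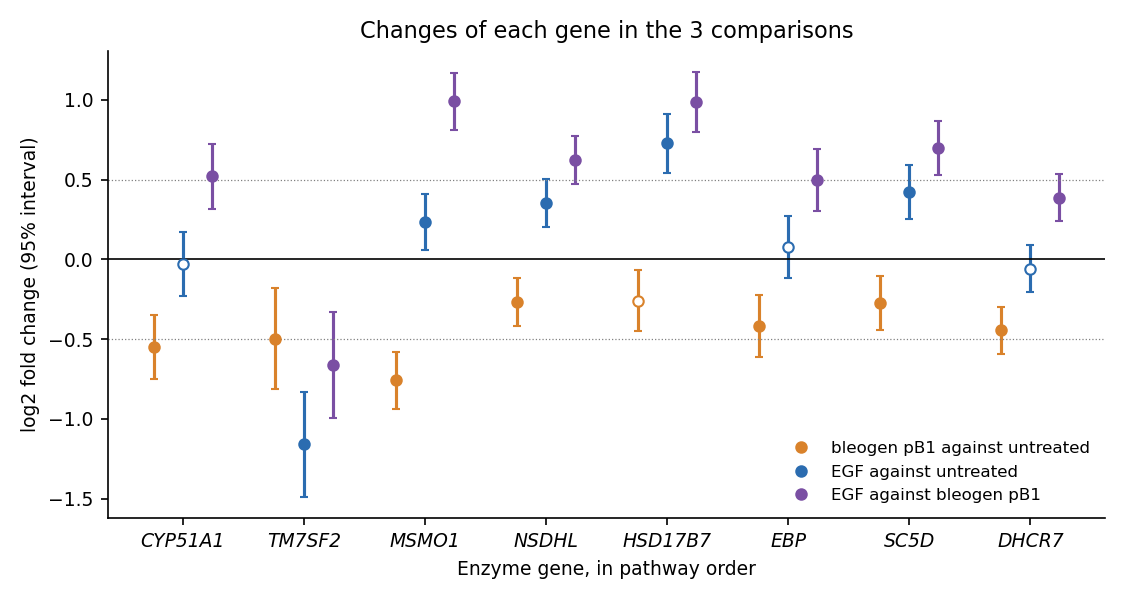
Log2 fold change of each gene in the 3 comparisons from edgeR's fit over all 9 libraries, with 95% intervals, and with filled points where the adjusted p was at most 0.05 and dotted lines at the fold limit of 0.5. The orange points (bleogen pB1 against untreated) lie between −0.76 and −0.26 for all 8 genes, while the blue points (EGF against untreated) run from −1.16 for TM7SF2 to 0.73 for HSD17B7.

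EGF moved the same genes in both directions, as it did the tested genes as a whole. Relative to untreated cells, HSD17B7, SC5D, NSDHL and MSMO1 rose, TM7SF2 fell, and CYP51A1, EBP and DHCR7 did not pass the test. The 4 that rose and the 1 that fell compare with 32.4% and 33.6% of all tested genes that rose and fell under EGF, 66.1% in all (edgeR's quasi-likelihood test, Benjamini-Hochberg). The median log2 fold change of the 8 genes was 0.16, against −0.01 over all tested genes. Past both thresholds were HSD17B7 (higher) and TM7SF2 (lower), 2 of 8, against 15.1%, 21.8% and, in either direction, 36.9% of all tested genes. In CPM (counts scaled to library size by TMM), the scale of the tests, the same 5 genes showed no overlap between the groups, 4 higher and 1 lower, against 34.5%, 35.9% and, in either direction, 70.4% of all tested genes. These comparisons and those of bleogen pB1 share the 3 untreated libraries. Replicate 1 of EGF held the lowest FPKM of its group for 7 of the 8 genes, all but CYP51A1. The log2FC of MSMO1 was 0.32 without that library (edgeR adjusted p = 0.00042) and 0.17 without replicate 2 of EGF (edgeR adjusted p = 0.043).

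TM7SF2 moved the most of the 8. It had 18.3, 18.6 and 19.0 FPKM in untreated and 7.18, 8.30 and 8.36 in EGF-treated cells, so that every treated library stood far below every untreated one. It fell by 55.2%, a log2FC of −1.16 (edgeR adjusted p = 8.4e-06, 95% interval −1.49 to −0.83, SE 0.134). CYP51A1, the step before it, had 78.7, 67.7 and 76.2 FPKM with EGF, overlapping the untreated range, and a log2FC of −0.03 with a 95% interval of −0.23 to 0.17 (edgeR adjusted p = 0.77).

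The genes of the methyl pair rose, and their estimates were larger at the later steps. The 95% intervals of MSMO1 (0.06 to 0.41) and NSDHL (0.20 to 0.505) overlapped, so the order of these genes is not settled. MSMO1 had 91.7, 114.9 and 105.5 FPKM with EGF, 1 library of which stood at the untreated level, and a log2FC of 0.23 (edgeR adjusted p = 0.011, SE 0.072). NSDHL had 57.3, 64.2 and 61.9 FPKM, all above the untreated range, and a log2FC of 0.35 (edgeR adjusted p = 0.00023, SE 0.061). HSD17B7 had 38.9, 45.5 and 42.8 FPKM, against 26.9 to 27.4 in untreated cells, and rose by 65.6%, a log2FC of 0.73 (edgeR adjusted p = 3.7e-06, 95% interval 0.54 to 0.91, SE 0.076).

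Among the last steps only SC5D passed. Its libraries had 25.5, 31.4 and 28.3 FPKM with EGF, all above the untreated 21.5 to 22.6, and it rose by 33.9%, a log2FC of 0.42 (edgeR adjusted p = 0.00015, SE 0.069). EBP had 234.1, 285.3 and 271.6 FPKM and DHCR7 159.4, 178.1 and 161.4. In FPKM all 3 EGF-treated libraries of DHCR7 lay below the untreated range of 178.88 to 183.05. In CPM the ranges of both overlapped those of untreated cells, with log2FC values of 0.08 (95% interval −0.12 to 0.27, edgeR adjusted p = 0.40) and −0.06 (95% interval −0.21 to 0.09, edgeR adjusted p = 0.41). Upper-quartile scaling moved the median of all tested genes under EGF to −0.12 from the −0.01 of TMM, and then EBP stood at −0.03 and MSMO1 at 0.13 (edgeR adjusted p = 0.14), and DHCR7 at −0.16 passed (edgeR adjusted p = 0.035), so that 3 of the 8 rose and 2 fell. TM7SF2, NSDHL, HSD17B7 and SC5D passed with the same sign in all 17 alternative fits.

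Compared directly, 7 of the 8 genes were higher with EGF than with bleogen pB1 and TM7SF2 was lower, and all 8 passed the test (edgeR's quasi-likelihood test, Benjamini-Hochberg). Of all tested genes, 28.5% were higher, 29.7% lower and 58.2% different in either direction. The largest differences were those of MSMO1 and HSD17B7, with log2FC values of 0.99 each (SE 0.073 and 0.077, edgeR adjusted p = 2.6e-07 and 4.3e-07). SC5D and NSDHL followed with 0.70 (SE 0.070) and 0.62 (SE 0.062), CYP51A1 and EBP with 0.52 (SE 0.083) and 0.50 (SE 0.079), and DHCR7 with 0.39 (SE 0.061). TM7SF2 stood at −0.66 (edgeR adjusted p = 0.0011, SE 0.136). With the fold limit 5 genes were called higher and 1 lower, EBP falling just under it, against 10.8% and 18.0% of all tested genes and 28.8% in either direction. No gene's groups overlapped, a state shared by 62.4% of all tested genes, 30.7% higher and 31.7% lower with EGF. The 8 genes passed with the same sign in all 17 alternative fits.

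The reduction after CYP51A1 can be carried out by TM7SF2 or by LBR, the lamin B receptor, a protein of the inner nuclear membrane. LBR had 47.2, 42.7 and 51.2 FPKM in untreated, 66.8, 50.6 and 61.5 in EGF-treated and 45.3, 53.0 and 48.2 in bleogen pB1-treated cells. It rose under EGF by 0.41 on the log2 scale (edgeR adjusted p = 0.0025, SE 0.098), while its value under bleogen pB1 was 0.04 (95% interval −0.20 to 0.28, edgeR adjusted p = 0.86). TM7SF2 thus made up 28.4 ± 1.68% of the summed FPKM of both genes in untreated cells, 21.6 ± 4.91% with bleogen pB1 and 11.9 ± 2.19% with EGF (SD, n = 3 each). The shares were 28.0, 30.3 and 27.0% without treatment, 9.71, 14.1 and 11.96% with EGF and 26.3, 16.5 and 21.9% with bleogen pB1. No groups overlapped, and each of the 3 two-sided exact permutation tests gave p = 0.1, the smallest this design allows. Replicate 1 of bleogen pB1, at 26.3%, lay close to the lowest untreated share of 27.0%. Among all pairs of 12275 tested genes, the ratios of 69.2% did not overlap between EGF-treated and untreated cells. The value was 28.2% for bleogen pB1 against untreated cells and 61.9% for EGF against bleogen pB1.

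**Figure D3:**
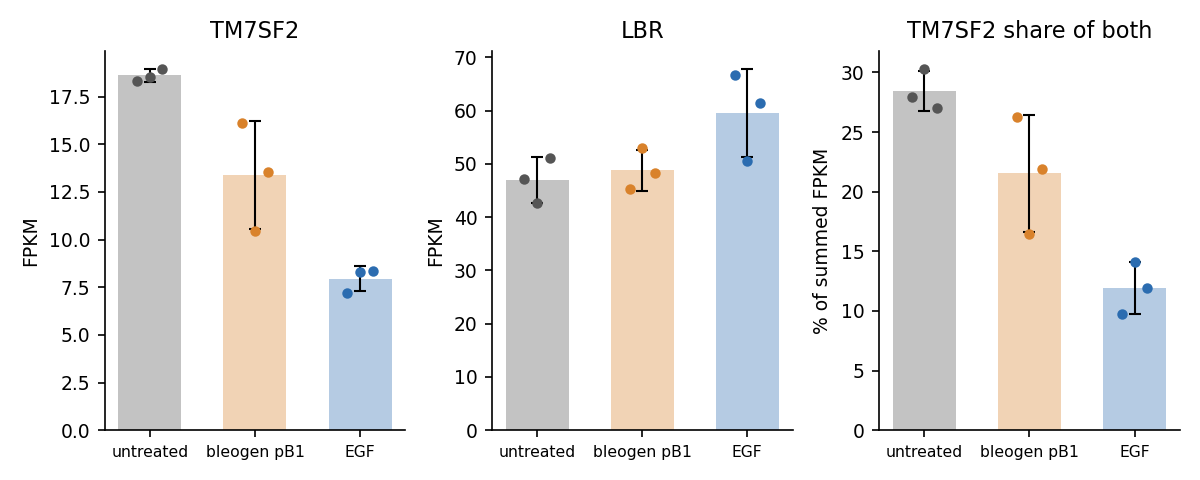
FPKM of TM7SF2 and of LBR, and the share of TM7SF2 in their sum, with bars for group means, error bars for the SD and points for the 3 libraries of a group. TM7SF2 had its lowest level and LBR its highest mean with EGF, and the mean share was 28.4% in untreated and 11.9% in EGF-treated cells.

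Ratios of neighbouring steps within a library do not depend on library size. For the 7 neighbouring pairs the log2 FPKM ratio of every EGF-treated library lay outside the range of the untreated libraries, on the same side for a given pair (two-sided exact permutation p = 0.1 each, 0.1 after Benjamini-Hochberg adjustment over the 7 pairs). Among all pairs of 12275 tested genes with an FPKM above 0 in every library, the ratios of 69.2% did not overlap in this comparison. The largest shifts were those around TM7SF2: the ratio of CYP51A1 to TM7SF2 went from 2.08 ± 0.0596 to 3.22 ± 0.216 and that of TM7SF2 to MSMO1 from −2.31 ± 0.0345 to −3.71 ± 0.0731 (SD, n = 3 each). The ratio of NSDHL to HSD17B7 went from 0.88 ± 0.0331 to 0.53 ± 0.0304, that of HSD17B7 to EBP from −3.27 ± 0.0979 to −2.63 ± 0.041, and that of SC5D to DHCR7 from −3.03 ± 0.0469 to −2.55 ± 0.0794. With bleogen pB1 the ranges overlapped for 5 of the 7 pairs and stood apart for 2, against 28.2% apart among all pairs of tested genes. The pairs that stood apart were MSMO1 to NSDHL, at 0.88 ± 0.0476 and 0.39 ± 0.0674, and SC5D to DHCR7, which differed by 0.17 (exact permutation p = 0.1 each, 0.35 adjusted over the 7 pairs). The ratio of NSDHL to HSD17B7 was 0.88 ± 0.0331 without and 0.89 ± 0.118 with bleogen pB1. Between EGF and bleogen pB1 all 7 pairs were apart (exact permutation p = 0.1 each, 0.1 adjusted), against 61.9% of all pairs of tested genes.

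Another 6 genes that serve the same stage were counted, and they include the electron donors of the oxidizing enzymes. Under bleogen pB1, 1 of these 6 fell and none rose, against 2.55% and 1.56% of all tested genes. The median log2 fold change of the 6 was −0.08. CYB5B, a cytochrome, fell by 0.23 (edgeR adjusted p = 0.042, SE 0.056), and without scaling factors none of the 6 passed. ERG28, a scaffold of the enzymes that act on the methyl pair, stood at −0.25 (edgeR adjusted p = 0.072), POR, the electron donor of CYP51A1, at −0.17 (edgeR adjusted p = 0.15), and CYB5A, CYB5R3 and LBR between 0.01 and 0.13.

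Under EGF 3 of these 6 rose, LBR (above), CYB5B by 0.30 (edgeR adjusted p = 0.00041) and CYB5R3, a reductase that recharges the cytochromes, by 0.30 (edgeR adjusted p = 0.0051). POR fell by 0.76 (edgeR adjusted p = 7.7e-07, SE 0.066), from 17.8 ± 0.199 to 10.0 ± 0.260 FPKM (SD, n = 3 each). ERG28 fell by 0.21 (edgeR adjusted p = 0.021) and CYB5A by 0.25 (edgeR adjusted p = 0.031, groups overlapping). Compared directly, LBR, CYB5B and CYB5R3 were higher and POR and CYB5A lower with EGF than with bleogen pB1, and the difference in ERG28 was 0.04 (edgeR adjusted p = 0.69). Of all tested genes, 32.4% rose and 33.6% fell under EGF, and 28.5% were higher and 29.7% lower in the direct comparison. The counts of the lists that follow stand beside these same shares, and beside 1.56% that rose and 2.55% that fell under bleogen pB1.

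The 11 enzymes before lanosterol, from ACAT2 to LSS, moved with the 8 genes under bleogen pB1: 9 fell, none rose and the median was −0.44. MVD, a decarboxylase of the mevalonate steps, showed the largest change, −0.84 (edgeR adjusted p = 0.0011), with 210.1 ± 2.43 CPM in untreated and 117.3 ± 9.38 in treated cells (SD, n = 3). Under EGF 3 rose and 2 fell, against 32.4% and 33.6% of all tested genes. The only one past both thresholds was FDPS, farnesyl diphosphate synthase, which rose by 0.75 (edgeR adjusted p = 0.00013, SE 0.121). With EGF 9 of the 11 were higher than with bleogen pB1 and none was lower, with FDPS at 1115.4 ± 251.6 against 491.6 ± 8.29 CPM.

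Of 12 genes of SREBP control and sterol uptake, 6 fell (4 without scaling factors) and none rose under bleogen pB1, the largest change being that of SREBF1, which encodes an SREBP, from 912.2 ± 28.4 to 489.2 ± 44.6 CPM (−0.90, edgeR adjusted p = 0.0002). Under EGF 5 rose and 6 fell (3 and 6 by upper-quartile scaling or without scaling factors), against 32.4% and 33.6% of all tested genes. Past both thresholds were TMEM97, a sterol-regulated membrane protein, which rose by 0.62 (edgeR adjusted p = 7.4e-06), and SREBF1, which fell by 0.76 (edgeR adjusted p = 7.8e-06). In the direct comparison 5 were higher and 1 lower with EGF (5 and 2 by upper-quartile scaling), and STARD4, a sterol transfer protein, differed most, at 107.3 ± 10.9 against 59.6 ± 3.53 CPM (0.85, edgeR adjusted p = 4.2e-06).

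Of 6 genes of sterol sensing by LXR and of sterol export or storage, ABCA1 and ABCG1 did not pass the count filter. MYLIP, a ubiquitin ligase induced by LXR, fell under bleogen pB1 by 1.03 (edgeR adjusted p = 0.00017), and none rose. Under EGF SOAT1, which esterifies cholesterol, rose by 0.74 (edgeR adjusted p = 2.9e-06), and 2 fell. These were NR1H3, an LXR, by 1.23 (edgeR adjusted p = 2.8e-05), and MYLIP by 1.17 (edgeR adjusted p = 5.6e-07). Compared directly, SOAT1 was higher by 0.65 and NR1H3 lower, at −1.08, with EGF than with bleogen pB1. MYLIP stood at −0.13 in that comparison (edgeR adjusted p = 0.28).

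Of 8 genes of fatty acid synthesis, 6 fell and none rose under bleogen pB1, and FASN, fatty acid synthase, fell by 1.34 (edgeR adjusted p = 0.0001, SE 0.102). Under EGF 4 fell and none rose, against 33.6% and 32.4% of all tested genes. The largest fall was that of SCD, a desaturase, by 1.32 (edgeR adjusted p = 3.6e-07). In the direct comparison 4 were higher with EGF, ACLY by 1.18, and 3 were lower, FADS2 at −0.60. For all 6 lists, the 8 genes included, the count of genes that rose under bleogen pB1 was 0, against 1.56% of all tested genes. It was 0 also at an unadjusted p under 0.05 in edgeR and with DESeq2, where the share of all tested genes was not counted. Of the 12 genes of SREBP control and uptake, 2 had every bleogen pB1-treated library above every untreated one, and 7 had every one below. The shares of all tested genes were 14.4% and 14.7%. The counts of the lists are descriptions without a test of any list.

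Outside the 8 genes, the profile most like their mean over the 9 libraries, by the root mean square difference of centred log2 CPM among 9320 genes with a mean of at least 10 CPM, was that of FDFT1, squalene synthase (0.0512). PGD, an enzyme of the pentose phosphate pathway that makes NADPH, followed with 0.0525, then IER5L (0.0608), IRF2BP2 (0.0617) and IDI1, an isomerase of the mevalonate steps (0.0705). For the 8 genes themselves the distance from their own mean ran from 0.0646 for EBP to 0.57 for TM7SF2. From outside, 4 genes were closer to the mean than any of the 8, but they were picked as the nearest of 9320 genes. Under bleogen pB1 FDFT1 stood at −0.44 and PGD at −0.45 on the log2 scale, and under EGF at 0.12 and 0.09.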

How the data were processed

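RNA of 9 HaCaT samples (3 untreated, 3 EGF-treated, 3 bleogen pB1-treated) was sequenced by BGI from oligo-dT-selected, dUTP-marked libraries, and the authors mapped the reads to GRCh38.p12. The counting program, and whether it used the strand, are not given in the sources used here. The authors deposited expected counts, which are estimated fragments per gene not scaled for depth, and FPKM, which they scaled for gene length and depth. The gene length in bases deposited by the authors was used only for the order of levels.

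Expected counts were rounded to whole numbers, filtered with edgeR's filterByExpr (12394 genes left) and scaled by TMM. They were fitted over all 9 libraries (6 residual degrees of freedom) with edgeR 4.0.16 (glmQLFit, glmQLFTest) in R 4.3.3, and p-values were adjusted over all genes tested by Benjamini-Hochberg. A gene rose or fell at an adjusted p of at most 0.05 and was called when the log2 fold change was also at least 0.5 in size. The 95% intervals are the SE times the t quantile at 6 degrees of freedom. Single values were compared with two-sided exact permutation tests. Depth allowed a floor of 0.141 to 0.148 CPM (3 counts), which covers counting error only. DESeq2 1.42.0, limma 3.58.1 on log2(FPKM + 1) and log2(FPKM + 0.1), other scalings, filters and fold limits, fits on 6 libraries, leave-one-out fits and a replicate block were tried. The script was tested on simulated data.

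All 8 enzyme genes and 6 further genes of the stage are named. Of the other lists, the called gene with the largest change in each direction and comparison is named. The members and lists were chosen with earlier results of these data known. Positions are from GENCODE 44 and promoters from RefSeq. Some genes of these lists are not reported here.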

Additional observations from a re-analysis of the deposited data

How the results depend on the processing

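Of 408 values (8 genes, 3 comparisons, 17 alternatives), 366 kept their direction and their side of the threshold, 36 no longer passed, 3 passed newly and 3 changed sign. The sign changes were those of CYP51A1 under EGF, 0.009 without untreated replicate 3 and 0.0433 without EGF replicate 2, in a range of −0.0738 to 0.0433 over the fits without 1 library, and of EBP under EGF, −0.0269 with upper-quartile factors; none of them passed a threshold. The number of the 8 genes past both thresholds was 2 under EGF, 2 under bleogen pB1 and 6 between both treatments. By the adjusted p alone it was 5 under EGF and 7 under bleogen pB1. With a log2 limit of 1 it was 1, 0 and 0, and with edgeR's glmTreat against 0.5 it was 0 under bleogen pB1 and 3 between both treatments. When each library was left out in turn, it ranged from 1 to 3 under bleogen pB1, and the number that fell under bleogen pB1 from 3 to 7. That number was also 3 with limma on log2(FPKM + 1) without a filter, and it was 8 with DESeq2. Leaving out a library removes 1 of 6 residual degrees of freedom. Libraries of the same number did not deviate together in every pair (correlations across genes of 0.207, −0.03 and 0.113 between untreated and bleogen pB1-treated cells, and of 0.0039 to 0.0562 in the other comparisons), and not every library correlated best with its own number, so the numbers were not taken as pairs. With the replicate block 5 of the 8 genes fell under bleogen pB1, TM7SF2 at −0.51 (edgeR adjusted p = 0.057) and SC5D at −0.28 (edgeR adjusted p = 0.063) no longer passing, and 2 were past both thresholds. With 3 libraries a group, the smallest exact permutation p was 0.1, and changes of the size of that of HSD17B7 under bleogen pB1 stood at the limit of the adjusted test.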
